A study of Homo sapiens with 12 samples.

Results

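The IL6 and IL11 cytokine pathway was examined through 10 genes, namely the cytokines IL6, IL11 and LIF, the receptor genes IL6R, IL6ST, LIFR and OSMR, the kinase gene JAK1, the transcription factor gene STAT3 and its feedback inhibitor SOCS3. They were selected on the rise of IL6 and IL11 after siFASRL in both cell lines, together with the genes known to act around these cytokines. The values of the members in the comparison of siFASRL with siNC are therefore given as a description, with no test. Of the 10 genes, 9 were among the 8842 genes listed, and IL6ST, which encodes the shared receptor gp130, was not analysed here. All 9 listed members passed the filter on low values, which asked for 3 libraries at or above 1, in each comparison.

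RNA-seq was performed on 2 established human liver cancer cell lines, HepG2 and LM3, in a study that asked what changes when the long noncoding RNA FASRL is knocked down. There were 4 groups of 3 libraries each, namely HepG2 with siFASRL, HepG2 with siNC, LM3 with siFASRL and LM3 with siNC, where siFASRL is an siRNA against FASRL and siNC the negative control siRNA. All cells received their siRNA with the lipid reagent RNAiMAX and were harvested 48 h after transfection, so that the siNC libraries share the transfection itself. FASRL is not among the listed genes, and its knockdown was not checked here. The sources used here do not say whether replicates were separate cultures, and p-values measure only the spread between these libraries, which may be technical. Values are normalized expression per gene, adjusted by the authors for gene length and depth. The number of reads behind them is unknown. The listed values of a library summed to between 316534 and 355094, and the lowest correlation of a library with another of its group was 0.9954 across genes on the log2 scale.

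The label of liver origin was checked against hepatocyte markers, of which 9 of 11 were listed. Albumin (ALB) was at 850.8, 805.2 and 789.8 in the HepG2 siNC libraries and at 0.06, 0.62 and 0.40 in those of LM3. In LM3, 6 of the 9 markers stayed below 1 in every siNC library, and the keratin gene KRT18, which other epithelia also express, made up 940.3 of the mean marker sum of 956.8. HNF4A, a transcription factor gene of hepatocytes and of some other epithelia, was at 14.39, 14.40 and 14.23 in LM3 under siNC and at a mean of 26.15 in HepG2. Most listed markers that encode secreted liver proteins were thus absent or nearly so in LM3, whereas HepG2 carried them. In bulk RNA, fewer cells of a type and less RNA per cell cannot be told apart.

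Cytokines of the IL6 family bind a receptor chain of their own, such as IL6R for IL6, and signal through gp130, alone or paired with LIFR or OSMR. The receptors activate JAK kinases, which phosphorylate STAT3, and STAT3 in turn induces genes that include SOCS3, an inhibitor that binds gp130 and the kinases and ends the signal. In hepatocytes IL6 is the classic inducer of acute phase proteins such as haptoglobin and fibrinogen, while albumin and transthyretin fall in the acute phase.

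IL6 was low in all siNC libraries. In HepG2 its normalized expression values were 1.17, 1.2 and 1.22 under siNC and 41.03, 41.38 and 38.15 under siFASRL. In LM3 they were 2.30, 2.07 and 2.24 under siNC and 28.21, 27.27 and 27.19 under siFASRL. Each siFASRL library thus lay far above each siNC library in both lines, and the replicates of a group lay close together. The ratio of means was 33.6 in HepG2 and 12.5 in LM3. On the scale of log2(value + 1) used for all fold changes here, which understates changes of low genes, the difference was 4.23 (SE 0.056) in HepG2 and 3.16 (SE 0.051) in LM3. IL6 went from the lowest of the 9 members under siNC in HepG2 to the fifth highest under siFASRL, at a mean of 40.2.

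IL11, which signals through gp130 with its own receptor IL11RA, was at 5.0, 6.09 and 4.72 in HepG2 under siNC and at 25.36, 29.25 and 29.52 under siFASRL. In LM3 it was at 2.01, 1.74 and 2.17 under siNC and at 10.85, 9.74 and 9.39 under siFASRL. The groups did not overlap in either line, and the 4 groups stood in the order LM3 siNC, HepG2 siNC, LM3 siFASRL and HepG2 siFASRL, with no overlap between neighbours. The ratio of means was 5.32 in HepG2 and 5.06 in LM3, and the log2 differences were 2.21 (SE 0.091) and 1.89 (SE 0.074). For IL6 the order of the groups was another one, with HepG2 siNC below LM3 siNC.

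LIF, whose receptor is LIFR paired with gp130, had a larger log2 difference in HepG2 than in LM3. In HepG2 it was at 6.10, 5.88 and 6.33 under siNC and at 10.97, 10.73 and 10.31 under siFASRL, a log2 difference of 0.72 (SE 0.055). LM3 values were 6.53, 6.44 and 6.66 under siNC and 7.0, 6.87 and 7.01 under siFASRL, a log2 difference of 0.08 (SE 0.046) that was 0.28 with quantile normalization. The LM3 groups did not overlap, yet their means differed by only 6.37%.

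**Figure D1:**
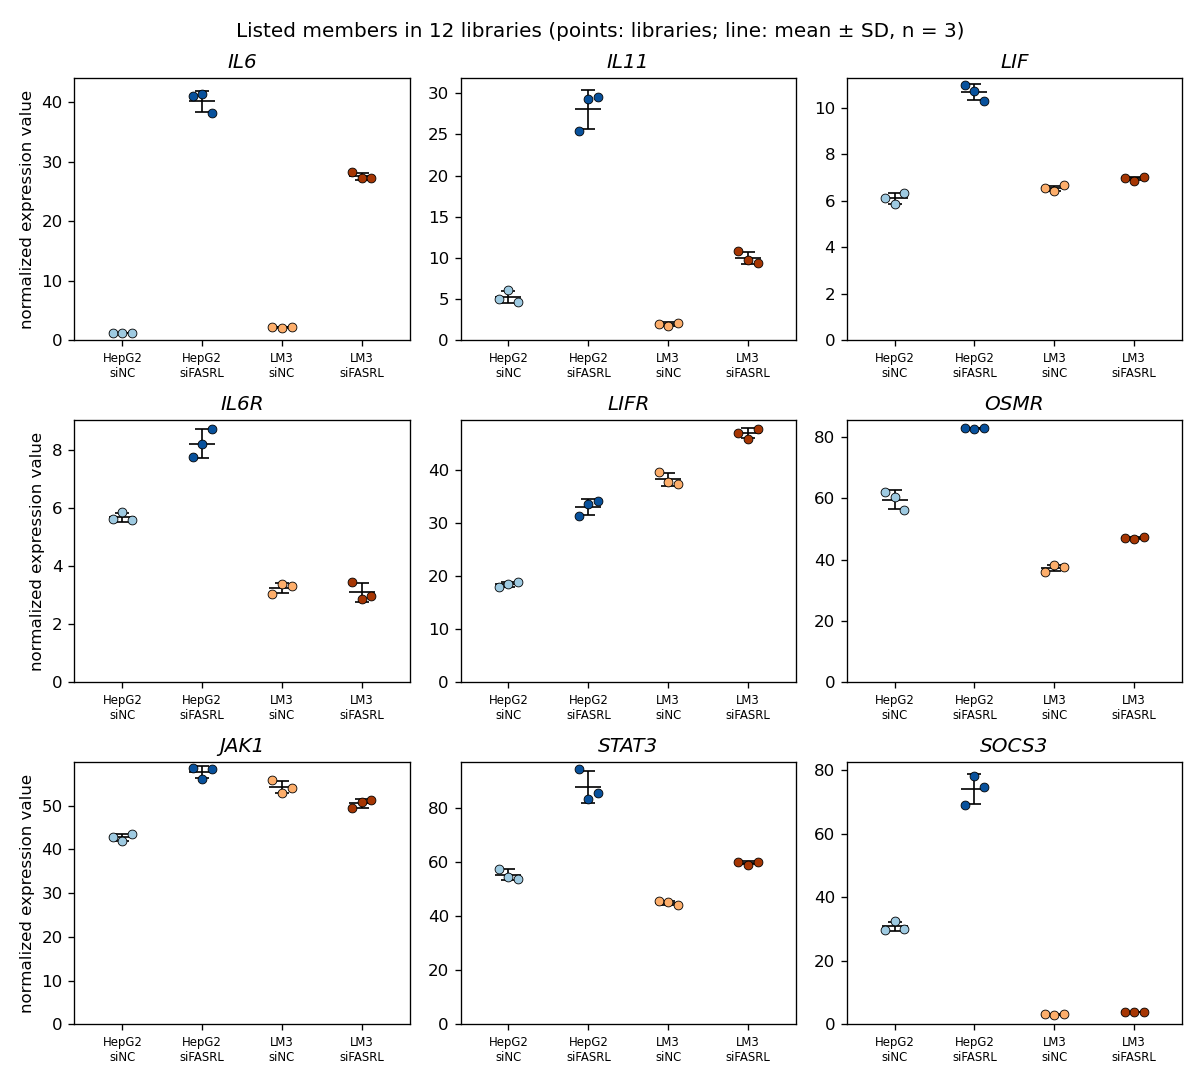
Normalized expression values (vertical axes, per gene from 0) of the 9 listed members in the 12 libraries, by group; points are libraries, horizontal lines the means and bars the SD of 3 libraries. IL6 and IL11 were higher under siFASRL in both lines, whereas SOCS3 went from a mean of 30.8 to 74.0 in HepG2 and stayed below 4 in each LM3 library.

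Because IL6 and IL11 moved together, their promoter sequences are shown. Of the 9 listed members, 8 had an entry in the RefSeq promoter table, and LIF had none. The sequences are from RefSeq. The 250 bases before the start site are given on the strand of the gene in build GRCh38.p14, for IL6 at chr7:22726950-22727199 (+) and for IL11 at chr19:55370464-55370713 (-). Both genes are protein-coding, IL6 (gene identifier 3569) on chromosome 7 from 22727200 to 22731998 and IL11 (3589) on chromosome 19 from 55364382 to 55370463. Capitals mark each match, on either strand, to 7 short motifs. AP-1 was searched as TGANTCA and the core of the cyclic AMP response element, CRE, as TGACG. The motif of the C/EBP factors was written TTGCNNAA, and for NF-kappaB the letters searched were GGANTTTCC. The STAT motif was searched as TTCNNNGAA, the motif of the TEAD factors was taken as GGAATG, and the TATA box had the letters TATAAA.
IL6: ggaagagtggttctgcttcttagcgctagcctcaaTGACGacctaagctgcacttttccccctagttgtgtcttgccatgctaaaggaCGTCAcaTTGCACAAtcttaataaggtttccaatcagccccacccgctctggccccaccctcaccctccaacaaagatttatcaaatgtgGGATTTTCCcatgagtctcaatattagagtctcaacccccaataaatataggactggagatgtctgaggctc
IL11: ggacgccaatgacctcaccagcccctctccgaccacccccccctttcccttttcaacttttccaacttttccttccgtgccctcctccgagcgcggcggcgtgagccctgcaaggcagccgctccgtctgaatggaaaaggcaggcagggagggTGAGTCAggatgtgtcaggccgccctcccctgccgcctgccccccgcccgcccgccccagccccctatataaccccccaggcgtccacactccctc

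The IL6 window held 2 matches to the CRE core, the second on the other strand, 1 to C/EBP from -155 to -148 and 1 to NF-kappaB from -72 to -64, counted from the start site. The IL11 window held 1 match to AP-1, from -96 to -90, and the matches did not overlap each other. Among all 35116 windows of 250 bases, 1.45% held the NF-kappaB motif, 9.05% that of C/EBP, 21.2% the CRE core and 6.57% AP-1. The 2 windows shared no motif searched here. The STAT motif, present in 6.57% of windows, matched neither, and it matched in 2 of the 3 windows of LIFR and in none of the 2 of SOCS3. A match is a description of letters, and nothing follows from it about the binding of a factor.

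Of 7 other cytokine genes of the family, 3 were listed and are reported, tested with limma where their values passed the filter. CLCF1, a ligand of the ciliary neurotrophic factor receptor, was at 3.50, 3.52 and 3.43 in HepG2 under siNC and at 6.65, 6.15 and 6.32 under siFASRL, a log2 difference of 0.72 (limma, adjusted p = 1.68e-06). In LM3 its log2 difference was 0.20 (limma, adjusted p = 0.0134), with a range of 0.16 to 0.41 and an adjusted p of up to 0.0595 over the alternatives. Neither reached the threshold used here, under which a call needed both a log2 difference no smaller than 1 in size and an adjusted p below 0.05. EBI3, a subunit of IL27 and IL35, had log2 differences of -0.57 in HepG2, from -0.86 to -0.21 over the alternatives, and -0.80 in LM3, and CTF1 stayed at or below 1.70 in every library. None of these 3 passed the threshold in HepG2, where all had an unadjusted limma p under 0.05, 2 higher and 1 lower. CTF1, 1 of the 2 higher, passed the filter in HepG2 only through its siFASRL libraries. Nothing is read from its p-value or direction. In LM3 none of the 2 tested passed (limma; both had an unadjusted p under 0.05, 1 in each direction). Such p-values were common among all genes, of which 45.1% were higher and 44.3% lower at an unadjusted p under 0.05 in HepG2, and 34.7% and 44.0% in LM3.

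Among the receptors, OSMR, the receptor chain for oncostatin M, had the highest level in HepG2. It was at 62.14, 60.50 and 56.20 in HepG2 under siNC and at 82.79, 82.64 and 83.06 under siFASRL. In LM3 it was at 36.11, 38.16 and 37.69 under siNC and at 46.95, 46.75 and 47.32 under siFASRL. The groups did not overlap in either line, and the log2 differences were 0.47 (SE 0.057) in HepG2 and 0.33 (SE 0.048) in LM3. LIFR showed the largest difference of the 3 receptor genes in HepG2. It was at 18.02, 18.49 and 18.84 there under siNC and at 31.29, 33.55 and 34.17 under siFASRL, a log2 difference of 0.81 (SE 0.057). LM3 values were 39.58, 37.81 and 37.32 under siNC and 47.06, 45.92 and 47.80 under siFASRL, a log2 difference of 0.29 (SE 0.050). All LM3 values of LIFR were above all HepG2 values.

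IL6R, the chain that binds IL6 itself, was low in both lines. In HepG2 it was at 5.62, 5.86 and 5.58 under siNC and at 7.75, 8.20 and 8.73 under siFASRL. In LM3 it was at 3.05, 3.39 and 3.33 under siNC and at 3.47, 2.86 and 2.97 under siFASRL, where the groups overlapped. The log2 differences were 0.46 (SE 0.059) in HepG2 and -0.06 (SE 0.068) in LM3, and the latter became 0.30 with quantile normalization. IL11RA, the chain that binds IL11, was the only other receptor gene listed of 4. Its means in HepG2 were 1.48 under siNC and 0.75 under siFASRL, a log2 difference of -0.50 that was -0.12 with quantile normalization. It passed the filter there only through its siNC libraries, so these values are a description with no test. In LM3 it was at or below 0.81 in each library and was not tested.

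The signalling genes JAK1 and STAT3 were at high levels throughout. STAT3 was at 57.55, 54.65 and 53.86 in HepG2 under siNC and at 94.34, 83.35 and 85.37 under siFASRL. LM3 values were 45.53, 45.17 and 44.03 under siNC and 60.11, 59.02 and 60.02 under siFASRL. The groups did not overlap in either line, with log2 differences of 0.65 (SE 0.064) and 0.40 (SE 0.047), and STAT3 was the highest of the 9 members under siFASRL in both lines. JAK1, one of the kinases bound to gp130, was at 42.80, 42.00 and 43.52 in HepG2 under siNC and at 58.56, 56.21 and 58.43 under siFASRL. In LM3 it was at 55.78, 52.99 and 54.00 under siNC and at 49.39, 50.88 and 51.41 under siFASRL. The groups were apart in both lines, with siFASRL above in HepG2 (log2 difference 0.42, SE 0.053) and below in LM3 (-0.10, SE 0.049, from -0.19 to -0.06 over the alternatives).

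Other genes of JAK-STAT and adaptor signalling were listed for 8 of 14. In HepG2 none passed the threshold (limma; 7 had an unadjusted p under 0.05, 2 higher and 5 lower, beside 45.1% and 44.3% of all genes). In LM3 STAT2, a transcription factor of the interferon response, fell by 1.16 on the log2 scale (limma, adjusted p = 3.38e-07), from a mean of 12.1 to 4.89. In HepG2 its mean went from 15.2 to 7.43, a log2 difference of -0.94 (limma, adjusted p = 5.6e-07). With quantile normalization the LM3 value was -0.98, and with median-of-ratios scaling the HepG2 value was -1.01, so that the threshold separated values that lay close to it. JAK3 had -0.84 in LM3, and -1.34 with a pseudocount of 0.1. It passed the filter in LM3 only through its siNC libraries, so these values are a description with no test.

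SOCS3 had a higher level in HepG2 than in LM3. In HepG2 it was at 29.82, 32.43 and 30.14 under siNC and at 68.96, 78.16 and 74.79 under siFASRL. LM3 values were 3.19, 2.81 and 3.27 under siNC and 3.81, 3.79 and 3.79 under siFASRL. The groups did not overlap in either line, but the ratio of means was 2.40 in HepG2 and 1.23 in LM3, with log2 differences of 1.24 (SE 0.065) and 0.23 (SE 0.057). The LM3 difference was 0.57 with quantile normalization. All LM3 values of SOCS3, with or without siFASRL, lay below all HepG2 values.

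Of 15 other inhibitors of JAK-STAT signalling, 7 were listed. PTPN6, a phosphatase best known from blood cells, fell in HepG2 by 1.21 on the log2 scale (limma, adjusted p = 1.94e-06), from 8.53, 8.92 and 8.62 to 3.69, 3.36 and 2.56, and was at or below 0.15 in each LM3 library. SOCS2, which limits growth hormone signalling, had a mean of 2.84 under siNC and 5.69 under siFASRL in HepG2, a log2 difference of 0.80 (limma, adjusted p = 6.21e-06) that became 1.06 with quantile normalization. In LM3 its groups overlapped (log2 difference -0.14, limma, adjusted p = 0.254), with a range of -0.22 to 0.09 over the alternatives. SOCS6, SOCS7, PIAS2, PTPN1 and PTPN2 lay between -0.60 and 0.64 in both lines. In LM3 none of the 6 inhibitors tested passed the threshold (limma; 4 had an unadjusted p under 0.05, 1 higher and 3 lower, beside 34.7% and 44.0% of all genes).

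Among all 9 listed members, 3 were higher under siFASRL in HepG2 by more than the fold of the threshold (IL6, IL11 and SOCS3), counted without a test, beside 3.61% of the 8144 genes tested, and none was lower by that fold, beside 6.79%. For all genes the shares are those past the whole threshold, which are also those past its fold. All siFASRL values lay above all siNC values for 9 of 9 in HepG2, beside 45.4% of genes. In LM3, 2 of 9 were higher by more than the fold (IL6 and IL11), beside 1.42% of 7483 genes, and none was lower by it, beside 6.2%. There 7 of 9 had all siFASRL values above all siNC values, beside 35.6% of genes, 1 (JAK1) had all below, beside 44.6%, and 1 (IL6R) overlapped. The median log2 difference of the members was 0.72 in HepG2, where that of all genes was 0.10, and 0.29 in LM3, where that of all genes was -0.06. Since the members were chosen by this comparison, nothing is read from these counts. The listed genes are a subset whose rule is not stated. Among genes averaging 5 or more, 5 of 6320 had a HepG2 log2 ratio between -0.20 and -0.04, against 598 of 6299 in LM3, so shares of all genes are shares of this list.

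**Figure D2:**
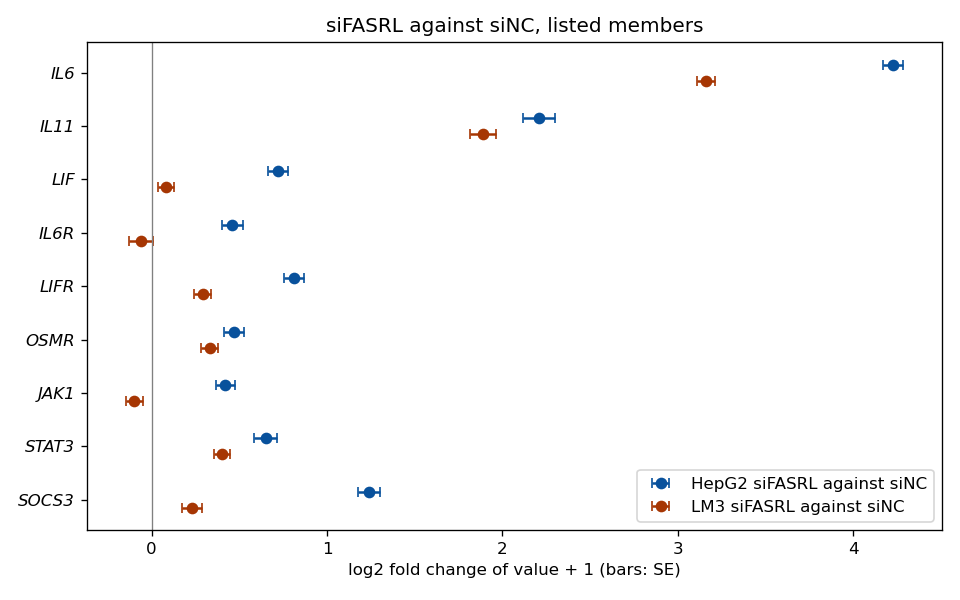
Log2 fold change of value + 1 (horizontal axis) of siFASRL against siNC for each listed member, with bars of 1 SE, in HepG2 (blue) and LM3 (brown). Each HepG2 estimate lay to the right of the LM3 estimate of the same gene, from 4.23 against 3.16 for IL6 to 0.47 against 0.33 for OSMR.

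Whether the lines differed before FASRL was targeted was tested in the siNC libraries, a comparison that the choice of members did not use but that shares its siNC libraries with the others. Of the 9 members, 2 were past the threshold as higher in HepG2, beside 15.6% of 8176 genes, and 1 as higher in LM3, beside 7.74%. SOCS3 was 9.97 times as high in HepG2 (log2 difference 2.96, limma, adjusted p = 2.59e-09). IL11 was 2.67 times as high in HepG2 (log2 difference 1.07, limma, adjusted p = 9.75e-06), but quantile normalization gave 0.65 and leaving out HepG2 siNC replicate 2 gave 0.98. LIFR was 2.07 times as high in LM3 (log2 difference -1.01, limma, adjusted p = 4.3e-07), a call that ended with median-of-ratios scaling (-0.94), without HepG2 siNC replicate 1 (-1.0) and without LM3 siNC replicate 1 (-0.99). By adjusted p alone 8 of 9 members differed between lines, close to the 80.9% of all genes.

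The other members lay below the fold under siNC. IL6 was 1.84 times as high in LM3 (log2 difference -0.54, limma, adjusted p = 2.19e-05), which quantile normalization made -1.33. OSMR and IL6R were higher in HepG2 by 0.66 and 0.65 on the log2 scale, the latter as low as 0.33 over the alternatives, and STAT3 by 0.30, while JAK1 had a log2 difference of -0.34. LIF was at a similar level, with a log2 difference of -0.09 (limma, adjusted p = 0.156) that ranged from -0.29 to -0.02 over the alternatives (adjusted p from 0.00159 to 0.765). Among the other ligand genes EBI3 was 13.2 times as high in LM3 (log2 difference -3.23, limma, adjusted p = 8.3e-09). Under siNC the most abundant member was OSMR in HepG2, at a mean of 59.6, and JAK1 in LM3, at 54.3.

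**Figure D3:**
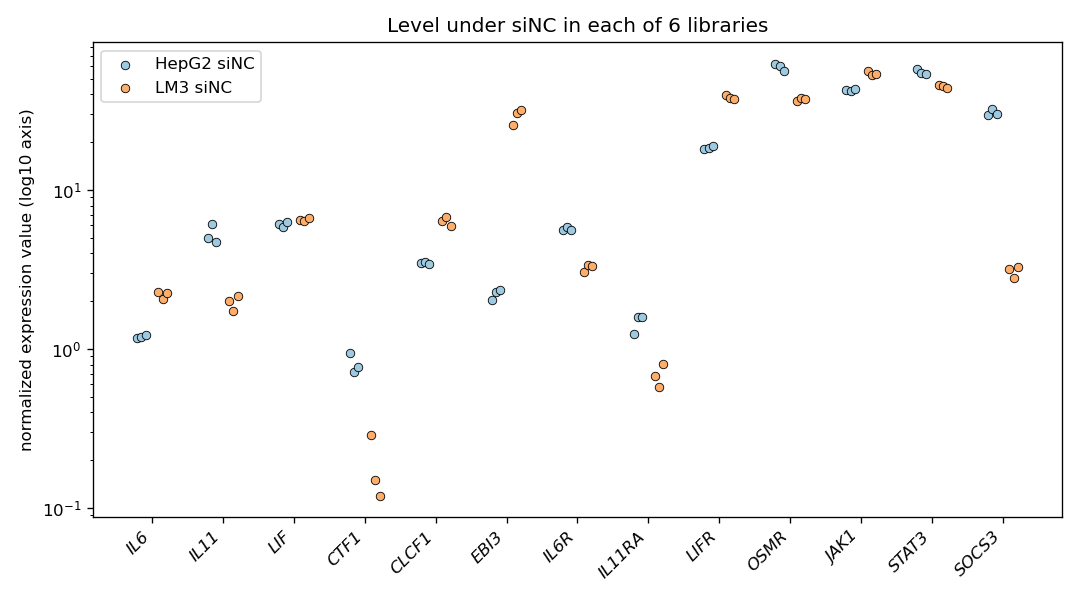
Normalized expression value on a log10 axis of the ligand and receptor genes reported and of JAK1, STAT3 and SOCS3 in the 6 siNC libraries, each point a library. SOCS3 was the member with the widest gap between lines, at a mean of 30.8 in HepG2 and 3.09 in LM3, and LIF the one with the narrowest.

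The siFASRL effect was then compared between lines by the interaction in 1 fit of all 12 libraries, expressed as the LM3 effect minus the HepG2 effect. It is computed from the same siFASRL and siNC values that chose the members, so the members' values are a description with no test, and nothing is read from their counts. All 9 members had a negative value, with a lower log2 difference in LM3, beside 55.6% of 8285 genes. Below 0 by the fold or more were 2 of 9, IL6 and SOCS3, beside 2.53% of genes, and none was above 0 by it, beside 2.31%. The value was -1.07 for IL6 (SE 0.068) and -1.73 with quantile normalization. For SOCS3 it was -1.0 (SE 0.085), right at the fold. It fell short of the fold with median-of-ratios scaling (-0.93), quantile normalization (-0.65), and a pseudocount of 0.1 (-0.97). It also fell short without HepG2 siFASRL replicate 2 (-0.96) or 3 (-1.0), without HepG2 siNC replicate 1 (-0.98) or 3 (-0.99), and without LM3 siNC replicate 1 (-0.99) or 3 (-0.97). The value stayed negative in each of these. The others were LIF (-0.64), IL6R, LIFR and JAK1 (-0.52 each), IL11 (-0.33, from -0.55 to -0.11 over the alternatives), STAT3 (-0.25, from -0.28 to -0.16) and OSMR (-0.14). The median of all genes was -0.05.

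Whether known targets of STAT3 moved with the cytokines was asked of 22 general target genes other than the members, of which 17 were listed and tested. In HepG2, 3 rose, beside 3.61% of all genes, and their median log2 difference was 0.39, where that of all genes was 0.10. In LM3, 2 rose, beside 1.42% of all genes, and 1 fell, beside 6.2%, with a median of 0.42, where that of all genes was -0.06. At an unadjusted p under 0.05 (limma), 14 of 17 were higher and 3 lower in HepG2, beside 45.1% and 44.3% of all genes. In LM3, 11 were higher and 3 lower, beside 34.7% and 44.0%. The counts past the threshold moved with the scaling. In HepG2 2 rose and 1 fell with median-of-ratios scaling and 1 rose and 1 fell with quantile normalization, and in LM3 the counts were 3 and 0, and 1 and 1. NNMT, a nicotinamide methylating enzyme, rose in both lines, in HepG2 from 36.42, 34.63 and 37.64 to 72.92, 79.45 and 72.33 and in LM3 from 15.05, 15.50 and 15.43 to 42.29, 42.95 and 43.49. The log2 differences were 1.03 (limma, adjusted p = 4.51e-07) and 1.43 (limma, adjusted p = 1.95e-07). The HepG2 value was 0.95 with median-of-ratios scaling, 0.90 with quantile normalization, 0.98 without HepG2 siFASRL replicate 2 and 1.0, just short of the fold, without HepG2 siNC replicate 2.

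CEBPB and CEBPD encode transcription factors that also act on acute phase genes. CEBPD was at 27.81, 44.05 and 28.69 in HepG2 under siNC and at 58.34, 95.30 and 94.43 under siFASRL (log2 difference 1.27, limma, adjusted p = 0.000282). In LM3 it was at 14.29, 28.11 and 28.02 under siNC and at 45.09, 48.06 and 44.86 under siFASRL (log2 difference 1.0, limma, adjusted p = 0.00292). The LM3 value rested on 1 library, since it was 0.69 without LM3 siNC replicate 1, and it was 0.97 without LM3 siFASRL replicate 2 and with quantile normalization. CEBPB was at 52.15, 76.50 and 50.04 in HepG2 under siNC and at 93.38, 149.1 and 147.6 under siFASRL (log2 difference 1.11, limma, adjusted p = 0.000484). That call ended with quantile normalization (0.96), without HepG2 siFASRL replicate 2 (0.99) and without HepG2 siNC replicate 3 (1.0). For both genes the groups did not overlap, but HepG2 siFASRL replicate 1 and LM3 siNC replicate 1 were the lowest of their groups and HepG2 siNC replicate 2 the highest. Over the alternatives, which include leaving out each library, the HepG2 values ranged from 1.15 to 1.5 for CEBPD and from 0.96 to 1.33 for CEBPB. What set these libraries apart was not tested. The effect on CEBPB and CEBPD did not differ between lines beyond the test (limma, adjusted p = 0.499 and 0.554).

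MUC1, a mucin gene on the same list, went the other way. It fell in LM3 by 1.04 on the log2 scale (limma, adjusted p = 1.22e-05), from a mean of 306.9 to 148.1, though the value was -1.0 with median-of-ratios scaling and -0.94 without LM3 siNC replicate 1. In HepG2 its log2 difference was -0.95 (limma, adjusted p = 3.14e-06), and it passed the fold with median-of-ratios scaling (-1.03), quantile normalization (-1.07) and without HepG2 siNC replicate 3 (-1.02).

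**Figure D4:**
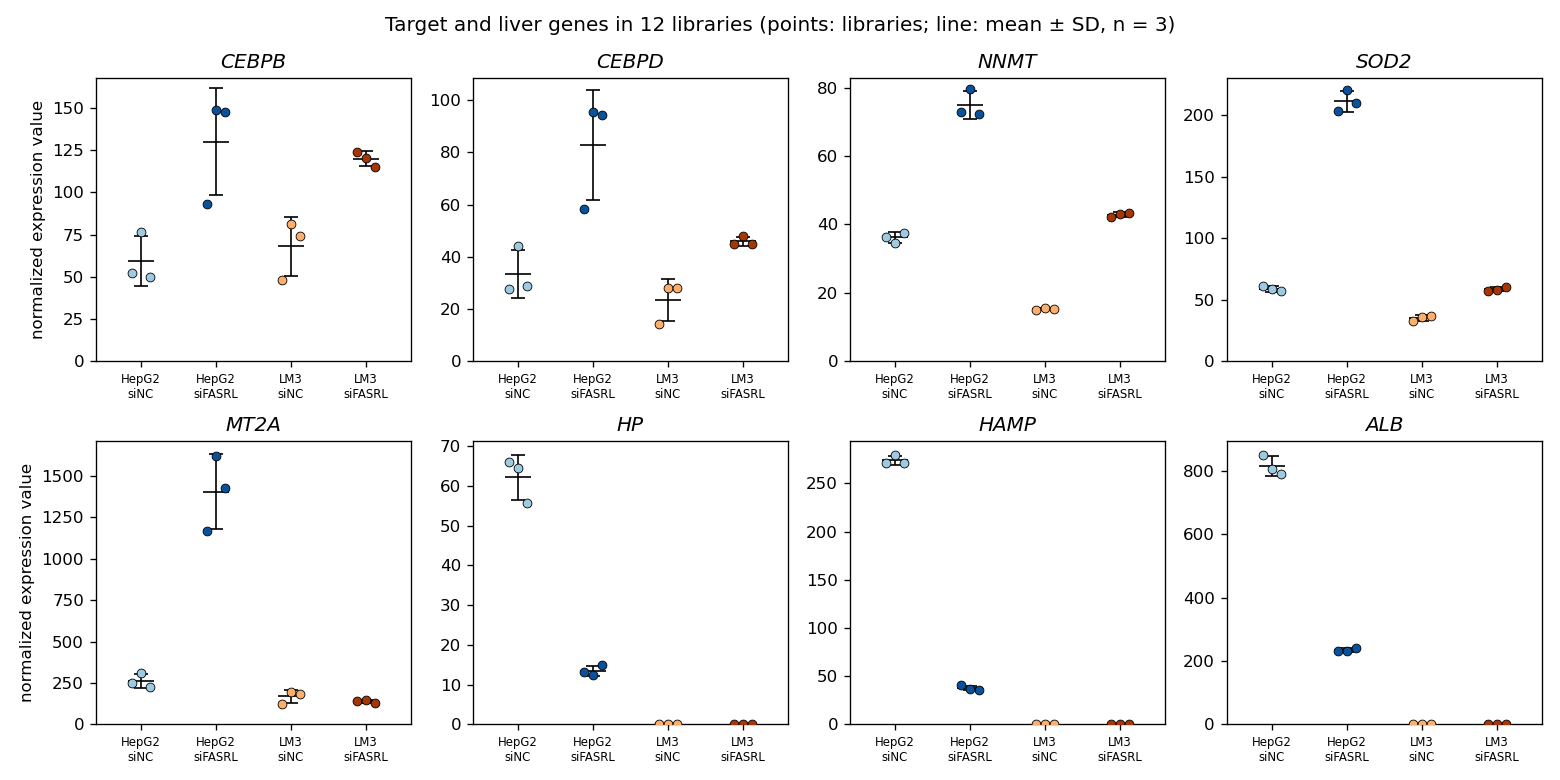
Normalized expression values (vertical axes from 0) of 8 target and liver genes in the 12 libraries; points are libraries, horizontal lines the means and bars the SD of 3 libraries. CEBPB, CEBPD and NNMT were higher under siFASRL in both lines, MT2A rose in HepG2, and HP, HAMP and ALB fell in HepG2 and were at or below 0.62 in each LM3 library.

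The acute phase genes that IL6 induces in hepatocytes were listed for 20 of 30, and in HepG2 most of them had lower values under siFASRL. There 10 fell, beside 6.79% of all genes, 2 rose, beside 3.61%, and 8 did not pass. The median log2 difference of the 20 was -0.95, where that of all genes was 0.10. Hepcidin (HAMP), the iron regulatory hormone, fell from 270.8, 279.4 and 271.4 to 40.63, 36.49 and 36.09 (log2 difference -2.83, limma, adjusted p = 3.24e-09). Haptoglobin (HP), which binds free hemoglobin, fell from 66.10, 64.58 and 55.59 to 13.15, 12.48 and 14.92 (log2 difference -2.12, limma, adjusted p = 5.5e-08). Also past the threshold were FGL1 (-1.91), ITIH3 (-1.60) and SAA4 (-1.55), and the fibrinogen genes FGA (-0.65) and FGG (-0.49) stayed short of it. In the same libraries IL6 itself was high.

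The 2 that rose were SOD2, the mitochondrial superoxide dismutase, and MT2A, a metallothionein. SOD2 went from 61.50, 58.91 and 56.81 to 203.2, 220.6 and 210.3 in HepG2 (log2 difference 1.82, limma, adjusted p = 2.56e-08) and had a log2 difference of 0.73 in LM3 (limma, adjusted p = 1.02e-05). MT2A went from 248.0, 312.0 and 228.3 to 1168, 1619 and 1427 in HepG2 (log2 difference 2.41, limma, adjusted p = 3.03e-07), whereas its groups overlapped in LM3 (log2 difference -0.24, limma, adjusted p = 0.183). Over the alternatives the LM3 value of MT2A ranged from -0.45 to -0.12 (limma, adjusted p from 0.000112 to 0.498). Neither SOD2 nor MT2A is specific to hepatocytes. In LM3, 5 of the 20 acute phase genes passed the filter on low values, and none of these passed the threshold (limma; 4 had an unadjusted p under 0.05, 2 in each direction, beside 34.7% higher and 44.0% lower of all genes). LRG1, 1 of the 2 lower, passed the filter in LM3 only through its siNC libraries, so its value there is a description with no test. Its LM3 log2 difference went from -0.71 to -1.29 with a pseudocount of 0.1.

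Negative acute phase genes, which hepatocytes lower in the acute phase, were listed for 10 of 11. In HepG2, 6 of the 9 tested fell, beside 6.79% of all genes, and 3 did not pass. The median log2 difference of the 9 was -1.35, where that of all genes was 0.10. APOA1, the main apolipoprotein of HDL, fell by 1.90 on the log2 scale (limma, adjusted p = 1.56e-07). ALB fell by 1.79, to 232.9, 230.7 and 241.3, and the transferrin gene TF fell by 1.70, while SERPINA6 fell by 1.56 and TTR by 1.35. In LM3 only 1 gene of this list passed the filter, with a log2 difference of -0.20. Both acute phase lists thus had a negative median in HepG2.

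**Figure D5:**
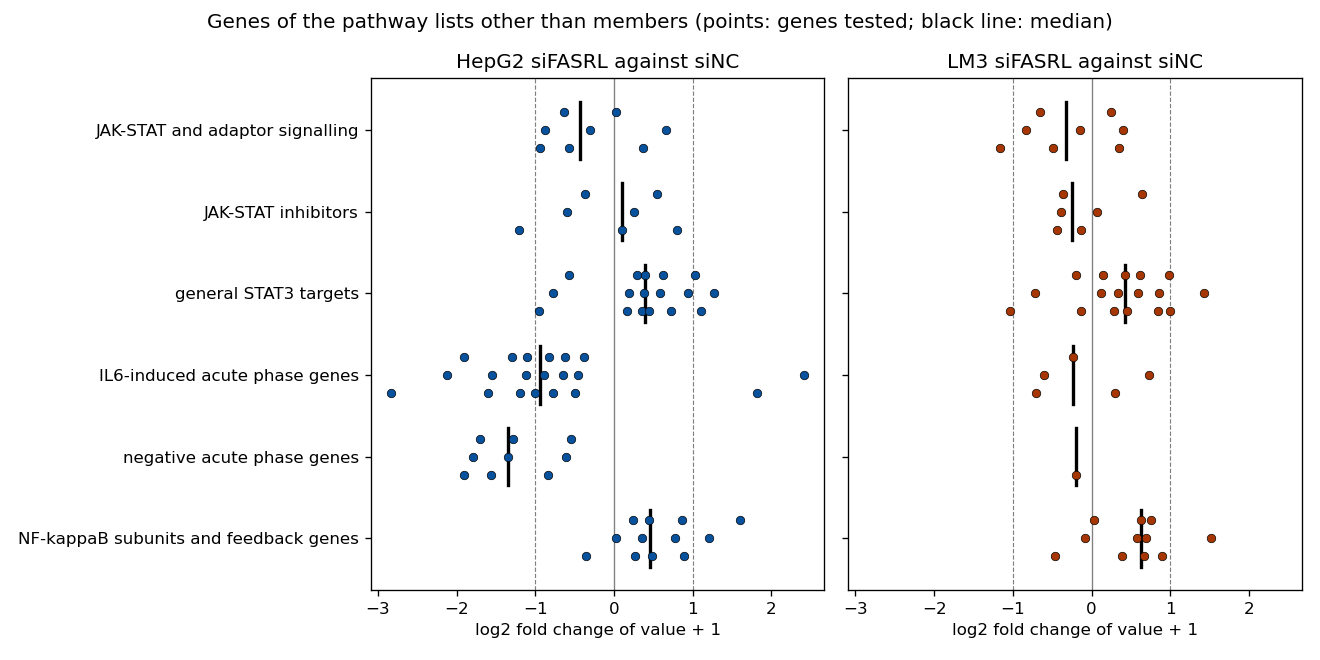
Log2 fold change of value + 1 (horizontal axis) of siFASRL against siNC for the genes tested in 6 pathway lists, members left out, in HepG2 and LM3; points are genes, black lines medians and dashed lines the fold of the threshold. In HepG2 the medians of the acute phase list (-0.95) and of the negative acute phase list (-1.35) lay left of 0, and that of the general STAT3 targets (0.39) right of it.

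The hepatocyte markers overlap these lists, since 4 of the 9 listed (ALB, APOA1, TTR and TF) are also negative acute phase genes and 1 (SERPINA1) is an acute phase gene, and those 5 are not counted as separate evidence. In HepG2, 6 of the 9 fell (ALB, AFP, APOA1, TTR, HNF4A and TF), beside 6.79% of all genes. Of these 6, AFP (-1.25) and HNF4A (-1.05) are in neither list. APOB, also in neither, had a log2 difference of -0.98, which passed the fold with median-of-ratios scaling (-1.06) and quantile normalization (-1.08), while KRT18 had a log2 difference of 0.13 (limma, adjusted p = 0.0657). The summed value of all 9 was 4708, 4706 and 4358 in the siNC libraries and 2603, 2502 and 2517 in those with siFASRL, with SERPINA1 the most abundant and none at 0. In LM3 the sums were 869.2, 1015 and 985.8 under siNC and 735.4, 791.0 and 761.4 under siFASRL, nearly all KRT18. HNF4A there had means of 14.34 and 6.71, a log2 difference of -1.0 just short of the fold (limma, adjusted p = 5.66e-06), which was -1.09 with a pseudocount of 0.1. The part of these markers' shift in the levels of acute phase genes was not tested.

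Markers of other cell types were also followed. Leukocyte markers were listed for 4 of 11, with CD3E and PTPRC not among them, and their mean sum in HepG2 was 125.8 under siNC and 92.0 under siFASRL, most of it lysozyme (LYZ), and in LM3 16.5 and 18.7, most of it CD68. Fibroblast and stellate cell markers were listed for 8 of 10, with mean sums of 114.4 and 60.8 in HepG2 (most abundant RGS5 and ACTA2) and 16.2 and 6.86 in LM3 (most abundant COL1A1). Of these, COL3A1, LUM and RGS5 fell in HepG2 and COL1A1 fell in LM3, but ACTA2 had a log2 difference of 0.65 in HepG2 (limma, adjusted p = 6.81e-05). RGS5 had 0.81 in LM3, from a mean of 0.29 to 1.26, and this was 1.17 with quantile normalization and 1.82 with a pseudocount of 0.1. It passed the filter in LM3 only through its siFASRL libraries, so these values are a description with no test. The endothelial gene VWF was at or below 0.35 in each library. In these cultured lines the summed values of the marker lists were lower under siFASRL except for the leukocyte list in LM3, and their part in the results was not tested.

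NF-kappaB, another pathway known to drive IL6 transcription, was followed through 12 listed genes of 14. In HepG2, 2 rose, beside 3.61% of all genes, and 10 did not pass, with a median log2 difference of 0.46, where that of all genes was 0.10. In LM3, 1 of 11 rose, beside 1.42%, with a median of 0.63, where that of all genes was -0.06. NFKBIB, an inhibitor of NF-kappaB, rose in both lines, from 5.23, 7.32 and 5.63 to 16.74, 22.59 and 22.01 in HepG2 (log2 difference 1.60, limma, adjusted p = 2.64e-06) and from 8.27, 12.61 and 12.76 to 36.15, 32.98 and 31.65 in LM3 (log2 difference 1.52, limma, adjusted p = 1.98e-05). BIRC3, an inhibitor of apoptosis, rose in HepG2 by 1.2 on the log2 scale (limma, adjusted p = 1.89e-07), and its log2 difference in LM3 was 0.38. At an unadjusted p under 0.05, 10 of 12 were higher and 1 lower in HepG2, beside 45.1% and 44.3% of all genes, and 8 of 11 higher and 1 lower in LM3, beside 34.7% and 44.0%. In HepG2, 1 of the 10 higher passed the filter only through its siFASRL libraries, so nothing is read from it. With quantile normalization 3 rose in HepG2 and 2 in LM3. Of the feedback genes, TNFAIP3 had log2 differences of 0.48 and 0.89, the latter 1.02 with quantile normalization, and NFKBIA had 0.02 and -0.09 (limma, adjusted p = 0.783 and 0.404).

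Of 15 other inflammatory cytokines, 6 were listed and 2 had values high enough to be tested. CSF1, a growth factor of macrophages, rose in HepG2 from 7.24, 7.30 and 6.22 to 15.62, 15.28 and 15.94 (log2 difference 1.07, limma, adjusted p = 5.56e-07), just short of the fold with median-of-ratios scaling (1.0). In LM3 its log2 difference was -0.49 (limma, adjusted p = 0.00011), from -0.58 to -0.22 over the alternatives. Factors that control the stability of IL6 mRNA were listed for 7 of 10, and none passed the threshold in either line (limma; in HepG2 5 and in LM3 6 had an unadjusted p under 0.05). Over all genes, 45.1% were higher and 44.3% lower at that p in HepG2, and 34.7% and 44.0% in LM3. ZC3H12A, the RNase that degrades IL6 mRNA, had log2 differences of 0.69 in HepG2 and 0.40 in LM3. ZFP36L1, which promotes the decay of AU-rich mRNAs, had means of 43.77 and 87.89 in HepG2, a log2 difference of 0.99 (limma, adjusted p = 1.05e-06) that reached the fold with a pseudocount of 0.1, and a log2 difference of 0.73 in LM3. Genes for the shedding of IL6R were listed for 4 of 5, and none passed (limma; 4 had an unadjusted p under 0.05 in each line, beside the shares of all genes given above). RHBDF1, an inactive rhomboid protein that regulates the sheddase ADAM17, had log2 differences of -0.66 and -0.98, the latter -1.12 and past the threshold with a pseudocount of 0.1. ADAM10, a protease that sheds the receptor, had -0.33 and -0.19.

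The difference between lines took both signs across these lists. Over all 8285 genes, 19.5% had a positive and 27.2% a negative value at an adjusted p under 0.05. Of the 20 acute phase genes, 16 had a positive and 2 a negative value at that adjusted p, and the 16 became 9 with a pseudocount of 0.1. Past the threshold with a positive value were 7 of these, as with HAMP (2.80) and HP (2.04). The 7 were at or below 0.29 in each LM3 library. Of the 16, only C3 and CFB passed the filter in LM3, and the rest stayed at or below 0.48 in each LM3 library. For the rest no LM3 effect could be measured, and the value repeats their fall in HepG2. The complement gene C3 had log2 differences of -0.38 in HepG2 and 0.30 in LM3 and a difference between lines of 0.68 (limma, adjusted p = 1.64e-05). For the complement gene CFB, which fell in HepG2 by 1.2 and had -0.61 in LM3, the difference between lines was 0.59 (limma, adjusted p = 0.000516). Of the 9 negative acute phase genes, all had a positive value at an adjusted p under 0.05, and 5 did with a pseudocount of 0.1. Of the 9, only RBP4 passed the filter in LM3. For the rest no LM3 effect could be measured, and the value repeats their fall in HepG2. RBP4, which was expressed in LM3, had 0.64 (limma, adjusted p = 0.000987). In the pathway lists, members left out, negative values past the threshold were those of SOD2 (-1.09), with a smaller positive log2 difference in LM3, and of MT2A (-2.66) and CSF1 (-1.56), whose log2 differences were positive in HepG2 and negative in LM3. Among the fibroblast and stellate cell markers COL1A1 had -1.1, which was -0.71 with quantile normalization. RGS5 (2.45), COL3A1 (1.51) and LUM (1.41) were positive past the threshold, the last 2 at or below 0.03 in each LM3 library. PTPN6, too low in LM3 for an effect to be measured there, had a value of 1.12, which was 0.89 with a pseudocount of 0.1. For ALB and APOA1 the values of 1.45 and 1.73 rested on the pseudocount, because LM3 held almost none of either transcript, and with 0.1 in place of 1 they were 0.36 (limma, adjusted p = 0.713) and 1.04 (limma, adjusted p = 0.173).

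The genes whose values across the 12 libraries were most like those of IL6 were ZNF473 (Pearson r = 0.996 on the log2 scale), PMP22 and EMG1 (0.994 each), EEF1D and AXL (0.992 each), of 7967 genes with a mean of at least 1. PMP22, a myelin and epithelial membrane protein gene, had means of 36.6 and 136.6 in HepG2 and of 40.4 and 100.1 in LM3 under siNC and siFASRL. Among the genes most like IL11 were AKIRIN2 (0.993), UBASH3B (0.991), NABP1 (0.990) and WDR46 (0.989). AKIRIN2, a nuclear factor known from inflammatory gene expression, had means of 23.0 and 45.6 in HepG2 and of 14.7 and 28.1 in LM3. IL11 ranked 587 by likeness to IL6 (r = 0.851) and IL6 ranked 543 by likeness to IL11. The libraries form 4 groups of 3, so these r values rest largely on 4 group means, and the 2 cytokines differed in the order of their siNC groups.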

How the data were processed

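RNA-seq values of 12 libraries were taken as deposited. The authors used SOAPnuke (1.5.2) to filter reads. Genome mapping was by HISAT2 (2.0.4), alignment against coding genes by Bowtie2 (2.2.5), and expression came from RSEM (1.2.12). Whether the deposited normalized values, given with 2 decimals, are FPKM or TPM is not given in the sources used here, and neither is the use of strand. The submitters' notes name hg19, but the chromosome names in the tables are those of GRCh38, and positions were taken from RefSeq by gene identifier (8790 of 8842 genes found). The symbols of 17 genes had become dates and were restored. A further 6 columns repeated values of the LM3 libraries and were not used again.

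Genes reaching 1 in no fewer than 3 libraries of a comparison were fitted with limma (3.58.1, R 4.3.3) on log2(value + 1), with Benjamini-Hochberg adjustment over all genes tested. Each comparison used its own 6 libraries, and the difference between lines all 12. The design had named a count test for the case of counts, which these values are not. The fits were tested on simulated data. The members and lists were chosen with earlier results of these data known. Named genes were the members, listed genes of the ligand, receptor and inhibitor lists, in other lists up to 5 genes per direction past the threshold in either line, and the 5 genes most like IL6 and IL11. A few genes of these lists are not reported here and were left out of the list counts, but not of the fits. Genes named beyond these (FGA, FGG, C3, CFB, RBP4, JAK3, LRG1, NFKBIA, TNFAIP3, ZC3H12A, ZFP36L1, RHBDF1, ADAM10 and single markers) were chosen after their values were seen. Alternatives were the pseudocount, the filter, the scaling, the variance prior, a replicate block, a joint fit and leaving out each replicate. Tables were handled in Python (3.11.15) with pandas (2.3.3), and figures drawn with matplotlib (3.10.9). No counting error is given, because depth is unknown.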

Additional observations from a re-analysis of the deposited data

Results flagged for a closer look

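The siFASRL effect was compared between the lines by the interaction in limma, with values as the LM3 effect minus the HepG2 effect on the log2 scale. The values that chose the members enter it, so no test is drawn for them and their values are a description. They were IL6 (-1.07), SOCS3 (-1.0), LIF (-0.64), IL6R (-0.52), LIFR (-0.52), JAK1 (-0.52), IL11 (-0.33), STAT3 (-0.25) and OSMR (-0.14), all 9 listed members. The values of IL11 and STAT3 ranged from -0.55 to -0.11 and from -0.28 to -0.16 over the alternatives.

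Of the other ligand, inhibitor and signalling genes named, CLCF1 (-0.52), SOCS2 (-0.95), PTPN1 (-0.47), STAT2 (-0.22) and JAK3 (-0.27) had an adjusted p under 0.05 (limma). So did PTPN6 (1.12). JAK3 was below 1 in each LM3 siFASRL library, and its LM3 log2 difference of -0.84 was -1.34 with a pseudocount of 0.1. CTF1 had -0.52 but passed the filter only through its HepG2 siFASRL libraries, so its value is a description with no test. CTF1 and PTPN6 were at or below 0.29 in each LM3 library, so no LM3 effect could be measured for them, and with a pseudocount of 0.1 CTF1 was -1.36 and PTPN6 0.89. Over all 8285 genes 19.5% had a positive and 27.2% a negative value at an adjusted p under 0.05. Of the 8 signalling genes in all, 1 was positive and 3 negative at that adjusted p, but 3 and 1 with median-of-ratios scaling and 4 and 1 with quantile normalization. The value of STAT2 ranged from -0.28 to 0.002 over the alternatives. SOCS2 passed the fold with quantile normalization (-1.18) and with a pseudocount of 0.1 (-1.15). It also passed without HepG2 siNC replicate 2 (-1.01), LM3 siFASRL replicate 1 (-1.03) or LM3 siNC replicate 1 (-1.02). Of 17 general STAT3 targets the effect differed for 7, 4 with a positive and 3 with a negative value, among them NNMT (0.40). Of 12 NF-kappaB genes it differed for 4, 3 with a positive and 1 with a negative value, the latter being BIRC3 (-0.82). However, 1 of the 3 positive genes passed the filter only through siFASRL libraries, so nothing is read from it. For cytokines outside the family it differed for CSF1 (-1.56).

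Of 20 acute phase genes 18 had an adjusted p under 0.05 (limma), 16 with a positive and 2 with a negative value. All 9 negative acute phase genes did, each positive. Over all genes the shares were 19.5% positive and 27.2% negative. Of the positive ones in these 2 lists only C3, CFB and RBP4 passed the filter in LM3, and the values of the rest repeat their fall in HepG2. With a pseudocount of 0.1 the positive ones were 9 and 5. Those named by size were SOD2 (-1.09), MT2A (-2.66), HAMP (2.80), HP (2.04), FGL1 (1.96), ITIH3 (1.59) and SAA4 (1.55), and in the negative acute phase list APOA1 (1.73), ALB (1.45), TF (1.62), SERPINA6 (1.56) and TTR (1.33). The genes named with positive values in these lists fell in HepG2 and were at or below 0.62 in each LM3 library, so no LM3 effect could be measured and the values repeat the HepG2 fall. C3 (0.68), CFB (0.59) and RBP4 (0.64) were expressed in LM3. With a pseudocount of 0.1 APOA1 was 1.04 (limma, adjusted p = 0.173) and ALB 0.36 (limma, adjusted p = 0.713), neither past the test. The genes most like IL6 were chosen for following it, which fixed the sign of their values, and nothing is read from them. They were ZNF473 (-0.40), PMP22 (-0.58), EMG1 (-0.28), EEF1D (-0.17) and AXL (-0.24), and over the alternatives the adjusted p reached 0.075 for EMG1, 0.347 for EEF1D and 0.0949 for AXL.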

How the results depend on the processing

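With a pseudocount of 0.1 the genes past the threshold rose from 847 to 1373 in HepG2, from 570 to 900 in LM3 and from 401 to 664 for the difference between lines; the cause was not tested. All other totals over both directions stayed within 1.5 times the main total. Quantile normalization moved the split of higher and lower genes from 294 and 553 to 388 and 429 in HepG2, from 106 and 464 to 163 and 260 in LM3, each by over 1.5 times, and from 1278 and 633 to 972 and 921 for HepG2 against LM3 under siNC, where it shifted the median of all genes by -0.14. Median-of-ratios scaling moved the split of the siFASRL comparison in HepG2 the other way, to 241 and 707. Quantile normalization reversed IL6R in LM3 (0.30), IL11RA (-0.42) and SOCS7 (-0.18) between lines under siNC, and STAT2 in the difference between lines (0.002). SOCS2 in LM3 also changed sign over the alternatives, from -0.22 to 0.09. The cause was not tested. Same-numbered deviations correlated between -0.286 and 0.534, so whether replicate numbers pair the libraries was not settled. The replicate block left the counts at 847, 570, 1911 and 401. A block leaves the folds unchanged in this balanced design, so these counts do not decide it. The counts were the same with limma-trend and, for the first 3, the joint fit, since every gene past the fold already had an adjusted p under 0.05. Leaving out each replicate gave 766 to 871, 485 to 577, 1339 to 1863 and 367 to 408. The low counts came from the filter, which asks for 3 libraries and so dropped genes expressed in 1 line, leaving as few as 7532 of 8176 genes under siNC. With the genes of the full fit kept, a setting chosen after seeing the data, the ranges were 852 to 893, 558 to 588, 1898 to 1939 and 396 to 419. Of the values for single genes, 4009 kept their side of the threshold or stayed within the spread, 28 passed it, 52 lost it and 25 moved. Depth is unknown and sets no limit here.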
